A study of Drosophila melanogaster with 3 samples.

Results

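MicroRNA genes were examined for peaks of svp, a nuclear receptor related to vertebrate COUP-TF, in whole fruit flies at the start of metamorphosis. The genes were chosen by their annotated symbol, which begins with mir- or is let-7 or ban, and 262 of 17873 annotated genes other than transposable elements met that rule. Of these, 260 lay on the chromosome arms, as hairpins of 50 to 174 bp with a median of 92 bp, and 2 lay on the ribosomal DNA scaffold and were left out of the counts. Hairpins on the same strand at most 10000 bp apart were counted once, which gave 203 loci, 181 with a single hairpin and 22 with several, up to 12 in the largest. The annotation writes mir-let7 for let-7, mir-ban for ban (bantam) and mir-bft for mir-263a.

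All samples belonged to 1 group, the svp-GFP strain, a stable transgenic line in which GFP is joined to the C-terminal end of svp. Whole white prepupae of both sexes were pooled and their exact age is given as unknown. Chromatin was sheared by sonication and precipitated with an antibody to GFP in 3 samples labelled as biological replicates. The labels used here do not say what drives the transgene or whether the endogenous svp gene was intact. No GFP-free sample was analysed, and whole animals show no cell type, so a peak may come from few cells or from many. The combined list is the authors' set of peaks that passed a threshold on the irreproducible discovery rate (IDR), a measure of how well replicates rank the same peaks. It held 5443 peaks, 5425 of them on the arms, and each replicate list held 30000. The number of reads is not given, so depth is unknown.

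MicroRNAs are cut from hairpins in longer primary transcripts, and the mature strand guides Argonaute proteins to messenger RNAs that pair with its seed, the bases near its 5′ end. Hairpins lie in introns or exons of protein-coding genes, in dedicated non-coding transcripts, or in clusters that share a transcript. The start of the primary transcript can therefore lie far from the hairpin. At the onset of metamorphosis in Drosophila, ecdysone changes the levels of several of them, and the let-7 cluster is a classic case. A peak reports where tagged svp or its chromatin was recovered, and no RNA level was measured in this series.

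The mature sequences below belong to the microRNAs that the results turn on. They were read from the RefSeq sequence and annotation of Release 6 of the genome (dm6), in which all 260 hairpins on the arms matched by symbol, with 481 mature products. Capitals mark the seed, bases 2 to 8. The first pair shares a seed and lies beside the highest peak, the next pair shares another seed, and the last 3 are the let-7 cluster, which had no summit within 2000 bp.
mir-279, 3p arm: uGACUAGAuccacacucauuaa
mir-996, 3p arm: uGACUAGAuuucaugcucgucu
mir-92a, 3p arm: cAUUGCACuugucccggccuau
mir-92b, 3p arm: aAUUGCACuagucccggccugc
mir-ban, 3p arm: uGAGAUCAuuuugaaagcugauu
mir-275, 3p arm: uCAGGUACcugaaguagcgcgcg
mir-305, 5p arm: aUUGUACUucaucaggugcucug
mir-252, 5p arm: cUAAGUACuagugccgcaggag
let-7, 5p arm: uGAGGUAGuagguuguauagu
mir-100, 5p arm: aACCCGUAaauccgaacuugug
mir-125, 5p arm: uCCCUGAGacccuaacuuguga

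Sequence at the summits was read from the same genome for 5 of the highest peaks near a hairpin, 151 bases on the plus strand with the summit in the middle. Capitals mark any match to 4 motifs: the nuclear receptor half-site AGGTCA, that half-site repeated in the same direction after 1 base with at most 1 mismatch, a GATA site (GATAA or GATAG preceded by A or T) and the GAGA repeat GAGAG. Both strands were read, so a match on the minus strand appears reversed and complemented. The first 4 windows lie upstream of their hairpins, and the last, downstream of mir-9377, is shown because it holds GAGAG on the minus strand 6 times with overlaps beside a GATA site.
mir-279 and mir-996, chr3R:29214369-29214519: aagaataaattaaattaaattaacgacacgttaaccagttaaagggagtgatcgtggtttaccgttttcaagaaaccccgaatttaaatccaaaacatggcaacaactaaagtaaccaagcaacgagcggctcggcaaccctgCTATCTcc
mir-ban, chr3L:640712-640862: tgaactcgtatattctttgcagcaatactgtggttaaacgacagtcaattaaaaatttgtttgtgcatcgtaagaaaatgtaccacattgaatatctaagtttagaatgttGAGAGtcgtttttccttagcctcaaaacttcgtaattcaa
mir-275 and mir-305, chr2L:7425303-7425453: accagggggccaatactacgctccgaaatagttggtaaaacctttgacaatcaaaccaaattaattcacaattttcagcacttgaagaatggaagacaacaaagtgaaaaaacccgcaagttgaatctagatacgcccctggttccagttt
mir-252, chr3R:13465918-13466068: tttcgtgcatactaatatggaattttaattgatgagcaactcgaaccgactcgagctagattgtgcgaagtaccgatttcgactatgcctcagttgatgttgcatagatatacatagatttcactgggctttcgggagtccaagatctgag
mir-9377, chrX:12666507-12666657: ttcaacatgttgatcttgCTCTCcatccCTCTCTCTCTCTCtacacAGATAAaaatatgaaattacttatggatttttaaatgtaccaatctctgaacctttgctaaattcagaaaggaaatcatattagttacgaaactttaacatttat

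In the combined list, 33 of 203 microRNA loci had a summit within 2000 bp of a hairpin, 16.3% with an exact 95% binomial interval of 11.5 to 22.1%. As background, 12.1% of all positions of the arms lay within 2000 bp of a summit. Sliding each locus, with its hairpins in their spacing, over every place on its own arm gave an expected 26 loci, or 12.8%. The observed share was thus near the background, which its interval holds. By gene the count was 38 of 260, or 14.6% with an interval of 10.6 to 19.5%, against 12.4% by placement. The intervals cover counting error over loci only. Clusters, which span more sequence, had a summit at 7 of 22 loci, or 31.8% with an interval of 13.9 to 54.9% against 16.8% by placement. Single hairpins had one at 26 of 181, or 14.4% with an interval of 9.60 to 20.3% against 12.3%. Both intervals hold their placement share, and the difference between the groups was not tested.

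Counts were above placement in all 5 windows tried, by a ratio that showed no step at 2000 bp. Within 500 bp of a hairpin, 11 loci had a summit against 8.97 by placement, and within 1000 bp 20 did against 15.4. At 5000 bp the count was 70 of 203, or 34.5% with an interval of 28.0 to 41.5%, against 49.5 loci or 24.4%. At 10000 bp it was 97 against 76.3. From the narrowest window to the widest, observed over placed loci gave ratios of 1.23, 1.30, 1.27, 1.42 and 1.27. The interval lay above the placement share at 5000 and 10000 bp and held it in the narrower windows, where fewer loci were counted. With only the 50% of combined peaks that had the higher signal values, 14 loci had a summit within 2000 bp against 14.8 by placement, so the small surplus at 2000 bp was absent among the stronger peaks.

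**Figure D1:**
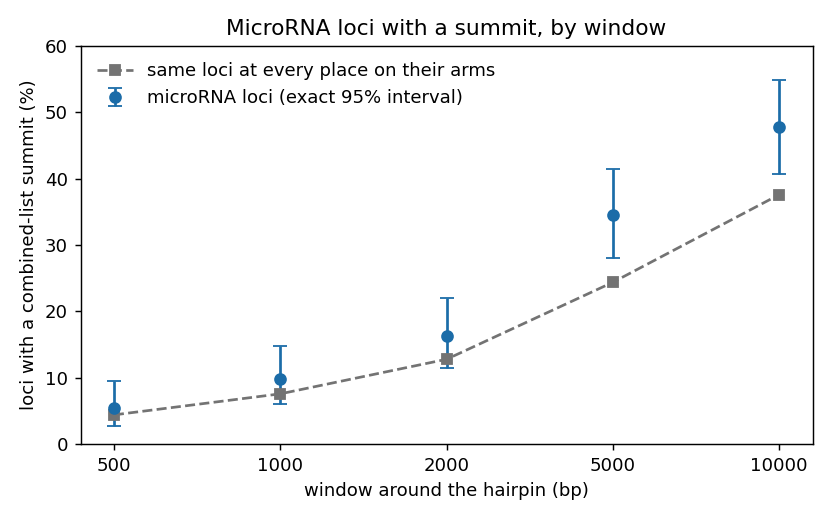
Share of 203 microRNA loci with a combined-list summit (percent, y axis) within 5 windows around the hairpin (bp, x axis); points are observed shares with exact 95% binomial intervals and squares the share over all places on the arms. The points lie above the squares in every window, with intervals that hold the square up to 2000 bp and lie above it at 5000 bp (34.5% against 24.4%) and 10000 bp (47.8% against 37.6%).

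Replicate 2 had the highest count and replicate 1 the lowest, both with the strongest peaks and with the whole lists. Among the top 5000 peaks by signal, 28 loci had a summit in replicate 1, 35 in replicate 2 and 30 in replicate 3, a mean of 15.3% ± 1.78 (SD, n = 3). The shares of arm positions near such summits were 11.2%, 11.4% and 11.5%, and placement gave 24.2, 24.5 and 24.8 loci, so the count was above placement in 3 of 3 replicates. With all peaks, 87, 110 and 102 loci had a summit, a mean of 49.1% ± 5.75 (SD, n = 3). Here 48.6%, 45.7% and 50.1% of arm positions were near a summit and placement gave 102, 96.0 and 105 loci, so replicate 2 was above placement and replicates 1 and 3 below. In the whole lists 58 loci had a summit in all 3 replicates and 65 in none. In the top 5000 lists 20 loci did in all 3 and 159 in none, and all of those 20 were also among the 33 loci of the combined list. The share of arm positions near a summit in all 3 lists or in none was not counted. These overlaps therefore describe the loci alone.

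On every arm the count was within 3 loci of placement. Chromosome arm 2L had 8 of 41 loci with a summit against 5.50 by placement, 2R had 7 of 41 against 5.05, and X had 8 of 39 against 5.48. On 3L the count was 4 of 31 against 3.68 and on 3R 6 of 49 against 6.27. Neither of the 2 loci on chromosome 4 had a summit, where placement gave 0.0181.

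The 33 loci shared 42 distinct summits, since 7 loci had several and 3 of them had 3 each. Signal values of these summits ran from 126 to 2270 with a median of 182, and those of all 5425 summits from 120 to 3228 with a median of 218. A summit is called supported by a replicate where a peak among the first 5000 of its list covered it. Of the 42, 26 (61.9%) had the support of all 3 replicates, 8 of 2, 6 of 1 and 2 of none, while 56.7% of all summits had that of 3. Summits at most 500 bp from the annotated transcription start (TSS) of any coding gene made up 33.3% of the 42 and 32.7% of all. These summits thus looked much like the rest of the list in support and in place, with somewhat lower signal. The highest peak lay upstream of the nearest hairpin at 18 loci, downstream at 13 and on the hairpin at 2.

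**Figure D2:**
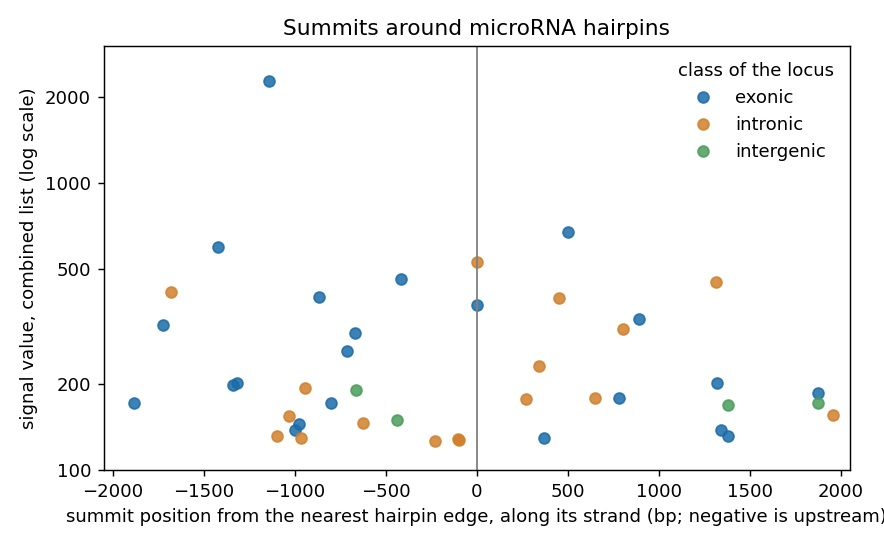
Position of each combined-list summit relative to the edge of the nearest hairpin along its strand (bp, x axis) and its signal value (log scale, y axis), coloured by the class of the locus. The summit shared by mir-iab-4 and mir-iab-8, which lie on opposite strands, is drawn on both sides, and the point far above the others is the peak of 2270 upstream of mir-279.

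The highest peak near any hairpin lay upstream of mir-279 and mir-996, which share a seed and keep cells from becoming carbon dioxide-sensing neurons. It spanned chr3R:29214183-29214637, with its summit 1141 bp upstream of mir-279, in the combined list at a signal of 2270 and rank 13. Replicate 1 gave this place a signal of 733 (rank 16), replicate 2 gave 841 (rank 12) and replicate 3 gave 697 (rank 11). Signal values of different lists have no stated common scale, so the ranks are the comparison, and here all 3 fell among the first 16 of 30000. The summit lay 118 bp from the TSS of lncRNA:CR31044, the transcript that RefSeq names pri-mir-279_mir-996, and 5728 bp from the nearest coding TSS. Another summit 370 bp downstream of mir-279 had a signal of 130 and was supported by 1 replicate.

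Peaks at mir-92a and mir-ban came next. The mir-92a and mir-92b pair maintains neural stem cells in the fly brain, in part through jigr1, the gene it lies in. Its peak (chr3R:25646903-25647231, signal 673) lay 503 bp downstream of mir-92a and 143 bp from a coding TSS of jigr1, at ranks 522, 446 and 320 in replicates 1, 2 and 3 (signals 179, 271 and 216). The peak at mir-ban, the growth-promoting microRNA bantam, lay 1421 bp upstream of the hairpin, which is in an exon of lncRNA:CR43334 (chr3L:640715-640908, signal 599). Its ranks were 395, 606 and 735 (signals 205, 237 and 145), so for both loci every replicate placed the peak within its first 735. A further summit of 360 lay 2030 bp downstream of mir-ban, just outside the window.

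At mir-966 the summit fell on the hairpin itself, in an intron of Pfas, a purine synthesis gene, 67 bp from a coding TSS (chr2L:6045507-6045828, signal 531). Signals were 120 (rank 1100) in replicate 1, 320 (rank 282) in replicate 2 and 108 (rank 1281) in replicate 3, with replicate 2 the high one. Upstream of mir-275 and mir-305, of which mir-305 acts on insulin and Notch signalling in intestinal stem cells, the summit lay 417 bp from mir-275 (chr2L:7425278-7425472, signal 462). This peak had signals of 160 (rank 632), 164 (rank 1290) and 131 (rank 906), so by rank it stood highest in replicate 1. In the window lay 2 more summits, of 198 and 337.

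The peak near mir-9377, in an intron of Tis11, which encodes a zinc finger protein of messenger RNA decay, lay 1314 bp downstream (chrX:12666474-12666689, signal 451). Replicate ranks were 901, 1105 and 976 (signals 134, 176 and 126), and summits of 230 and 146 lay nearer to the hairpin. At mir-252 the summit lay 1682 bp upstream (chr3R:13465720-13466188, signal 416) and 113 bp from the start of asRNA:CR17025, named pri-mir-252. Here the replicates were less alike, with signals of 124 (rank 1037), 231 (rank 649) and 69.7 (rank 2562).

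The last 3 of the 10 highest loci lie on 2R. The microRNA mir-8 promotes growth through the fat body and insulin signalling, and its summit lay 865 bp upstream (chr2R:16830339-16830794, signal 401, replicate ranks 868, 1684 and 1109 with signals of 136, 140 and 117). Near mir-4985, in an intron of the fatty acid transport protein gene Fatp3, it lay 450 bp downstream (chr2R:24294650-24294867, signal 399, ranks 1380, 901 and 1115 with signals of 103, 196 and 117). The mir-184 hairpin, needed for egg production in females, held the summit inside it (chr2R:13329386-13329595, signal 376, ranks 1980, 961 and 1271 with signals of 80.9, 191 and 108). All 10 highest loci were supported by 3 of 3 replicates.

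The remaining 23 loci had highest signals from 126 to 320. Supported by all 3 replicates were the peaks at mir-4943 (signal 320), mir-4962 (311, in the Tousled-like kinase gene Tlk), mir-9374 (300, in an exon of the nuclear receptor gene Hr39), mir-375 (261), mir-9378 (193), mir-2496 (190), mir-87 (185), mir-4955 (178, in the perlecan gene trol), mir-969 and mir-210 (172) and mir-14 (145). Those supported by 2 replicates were mir-iab-4 and mir-iab-8 (201), mir-998 and mir-11 in an intron of the cell cycle gene E2f1 (177), mir-282 (172), mir-955 (169), the cluster of mir-283, mir-304 and mir-12 (156) and mir-276a (138). Peaks at mir-4979 (132), mir-4978 (130), mir-2491 (128) and the cluster of mir-982, mir-303, mir-983-1, mir-983-2 and mir-984 (126) were supported by 1. Those at mir-967 (132, in bun) and mir-4967 (127, in Pka-R2) were supported by none. Below a signal of 145 no locus had the support of all 3. The genes mir-iab-4 and mir-iab-8 are transcribed from the opposite strands of a single hairpin site, so their peak is a single one.

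**Figure D3:**
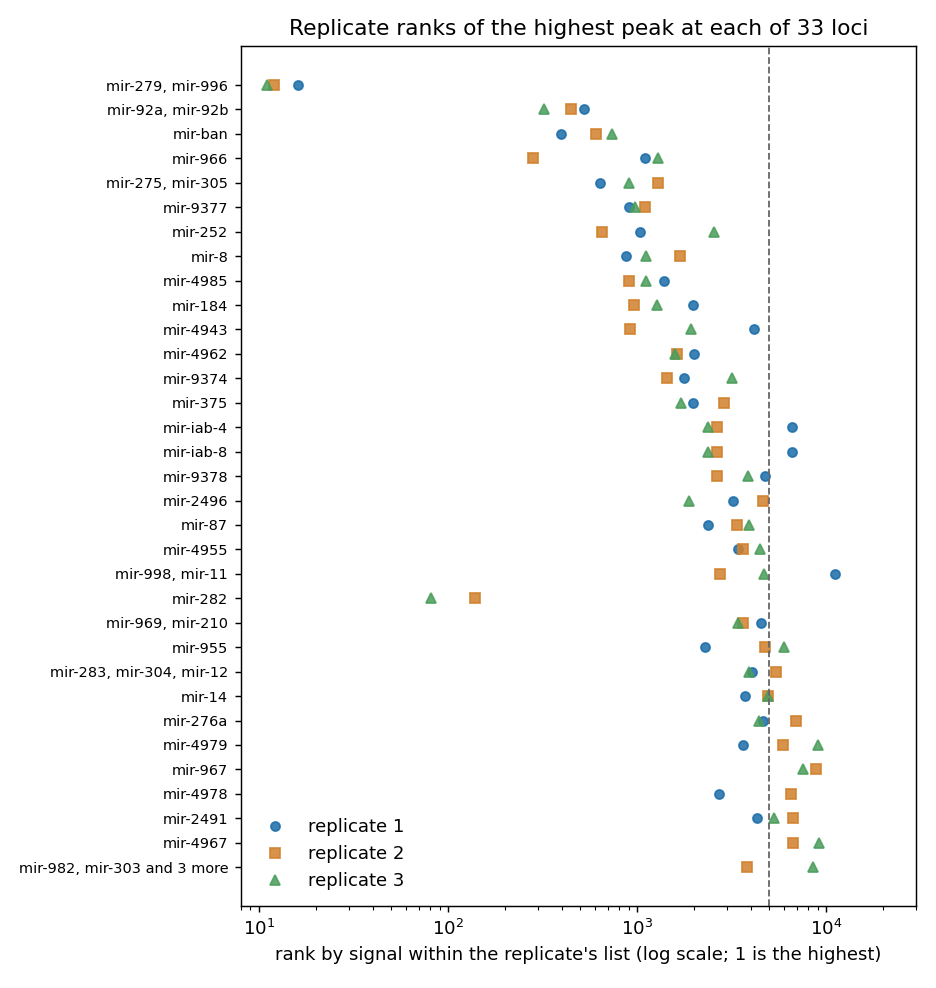
Rank by signal (log scale, x axis) in each replicate's own list of 30000 peaks for the highest peak at each of the 33 loci, ordered by combined signal from the top; the dashed line marks rank 5000 and a missing symbol means that the replicate had no peak over the summit. The 10 upper loci lie left of the line in all 3 replicates, and at mir-282 the symbols belong to a stronger peak that overlaps its summit.

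At mir-282 the window cuts through a dense group of peaks. The summit inside it, 1886 bp upstream at a signal of 172, is a shoulder of an interval whose main summit had a signal of 1212, rank 95, and lay 2103 bp upstream, outside the window. Further summits of 851, 288 and 424 lay 3346, 3147 and 4041 bp upstream. Loci just inside the limit were mir-969 and mir-210 (1876 bp), mir-87 (1877 bp), mir-282 (1886 bp) and the mir-12 cluster (1959 bp). Just outside were mir-2500 (2021 bp), mir-1008 (2155 bp), the cluster of mir-13b-1, mir-13a and mir-2c (2248 bp) and mir-4949 (2492 bp). At the other end, 92 of 260 hairpins, or 67 loci, lay more than 20000 bp from any summit, and the median distance was 12269 bp by gene. Of all arm positions, 37% lay within 10000 bp of a summit. The share beyond 20000 bp was not counted, so these distances describe the hairpins alone.

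Between 2000 and 5000 bp from the nearest hairpin, 37 further loci had their first summit, and at 25 of them the highest one lay upstream against 12 downstream. Sides were not counted for placements. The summit shared by mir-314 and mir-956, on opposite strands, counts on both sides. All 3 replicates supported the highest of these summits at 19 loci, both of that pair included. The strongest was 4316 bp upstream of mir-9a, which guards sense organ precursors against extra bristles, at a signal of 1077 and rank 122. Near mir-1008 a summit of 861 lay 2155 bp upstream, and near the cluster of mir-2a-2, mir-2a-1 and mir-2b-2 in spi, an EGF receptor ligand gene, a summit of 593 lay 2674 bp upstream of mir-2b-2. Downstream, summits of 839, 776 and 699 lay 3945 bp from mir-1006, 3749 bp from mir-1004 and 4371 bp from mir-4972. The reading of this window was chosen after its values were seen.

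With non-coding genes also taken as hosts, intronic and intergenic microRNAs were both near their background. Of 99 loci classed as intronic, 13 had a summit within 2000 bp, 13.1% with an interval of 7.18 to 21.4%, against 12.8% by placement and 14.0% of all intronic positions. Of 26 intergenic loci, 3 did (mir-2496, mir-955 and the pair of mir-969 and mir-210), 11.5% with an interval of 2.45 to 30.2%, against 12.6% by placement and 8.74% of intergenic positions. Their intervals overlap almost wholly, so the shares could not be told apart. A locus takes the class of most of its hairpins. By hairpin, 15 of 117 intronic and 6 of 48 intergenic ones had a summit, beside 38 of 260 microRNA genes. Among those intergenic hairpins, mir-303 lies in a locus classed as intronic and mir-305 in a locus classed as exonic. The highest peak at each of the 3 intergenic loci lay within 500 bp of a coding TSS, as did that at 3 of the 13 intronic loci. In the top 5000 lists the intronic count was 10, 13 and 9 of 99 in replicates 1, 2 and 3 and the intergenic count 3, 4 and 5 of 26. Beside these, 11.2%, 11.4% and 11.5% of arm positions lay near such summits. The intergenic share depended on what counts as a host. With protein-coding hosts alone, 14 of 57 intergenic loci had a combined-list summit, or 24.6%, against 7.41 loci by placement. Of intronic loci 14 of 102 then did, or 13.7%, against 13 by placement.

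Loci classed as exonic had more. Of 78 such loci, 17 had a summit, 21.8% with an interval of 13.2 to 32.6%, against 13% by placement and 12.8% of exonic positions. The lower limit thus stood just above placement. The pair of mir-92a and mir-92b is among the 17 only because ties between classes went to exonic. Its summit lay within 2000 bp of the intronic mir-92a and not of the exonic mir-92b. By hairpin, 17 of 95 exonic ones had a summit, beside 38 of 260 microRNA genes. When these loci were split by host, a choice made after the values were seen, the 44 in protein-coding hosts had 5, or 11.4% with an interval of 3.79 to 24.6% against 12.7% by placement. The 34 in exons of non-coding genes alone had 12, or 35.3% with an interval of 19.7 to 53.5%, against 13.3% by placement. Of all positions in such exons, 17.7% lay within 2000 bp of a summit. With the iab hairpin site counted once the share was 11 of 33, or 33.3% with an interval of 18.0 to 51.8%. The loci mir-87 and mir-iab-8 count through hosts on the other strand. With non-coding hosts on the strand of the hairpin alone, in exons or introns, the share was 11 of 34, or 32.4% with an interval of 17.4 to 50.5%, which holds the 17.7% of such exon positions and lies above the 13.3% by placement.

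Those 12 loci are mir-279 and mir-996, mir-ban, mir-275 and mir-305, mir-8, mir-184, mir-375, mir-iab-4, mir-iab-8, mir-87, mir-282, mir-14 and mir-276a, with signals from 138 to 2270 and a median of 231. In 8 of them the highest peak was supported by all 3 replicates and in 4 by 2. The peak lay upstream at 8, downstream at 3 and inside at 1, and at none of the 12 within 500 bp of a coding TSS. In the top 5000 lists, 10, 12 and 11 of the 34 loci had a summit in replicates 1, 2 and 3, a mean of 32.4% ± 2.94 (SD, n = 3). Of all arm positions, 11.2%, 11.4% and 11.5% lay near such summits. The group was chosen after the values of these same replicates were seen. The share stayed above placement in every window tried, with 3 loci against 1.59 at 500 bp, 6 against 2.70 at 1000 bp and 18 against 8.48 at 5000 bp. Among the stronger 50% of peaks it was 6 against 2.62. Placement here runs over whole arms. The higher share of positions in such exons was not counted for these settings.

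**Figure D4:**
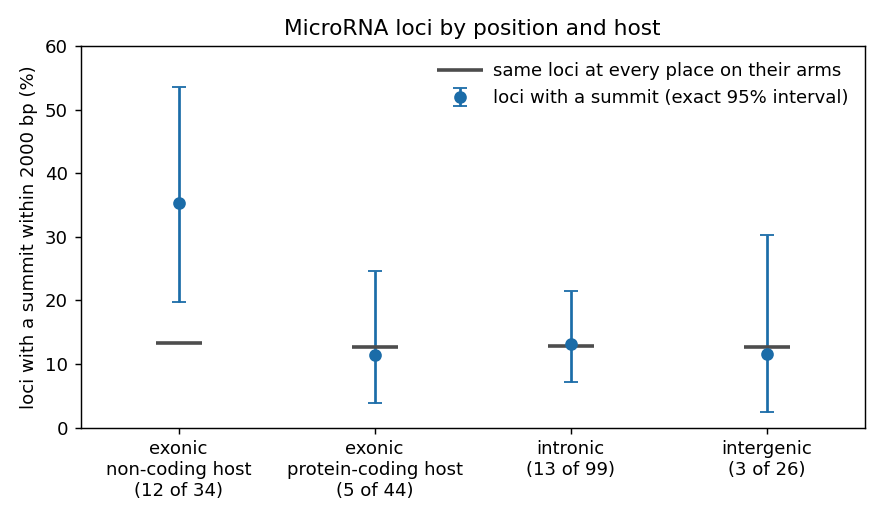
Share of microRNA loci with a combined-list summit within 2000 bp (percent, y axis) by position and host (x axis, with loci counted); points are observed shares with exact 95% binomial intervals and horizontal dashes the share over all places on the arms. The interval lies above the dash for loci in exons of non-coding genes (35.3% against 13.3%) and holds it in the other 3 groups. Of all positions in exons of non-coding genes alone, which are not drawn, 17.7% lay within 2000 bp of a summit.

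Starts of the host transcripts were then read directly, since they can lie far from the hairpin. Among non-coding hosts on the strand of the hairpin, 13 of 37 had a summit within 1000 bp of a TSS, 35.1% with an interval of 20.2 to 52.5%, against 13.9% of 2520 non-coding genes other than microRNAs. The 13 include asRNA:CR17025 and asRNA:CR46354, which both host mir-252 and share its summit of 416. Among the 13, only lncRNA:CR43836, lncRNA:CR45916 and lncRNA:Hsromega host microRNAs without a summit within 2000 bp of the hairpin. The counts by start and by hairpin thus share most of their loci and often the same peak. Counted once per microRNA locus, 12 of 36 had a host with such a summit, 33.3% with an interval of 18.6 to 51.0%. RefSeq names 24 genes on the arms as primary microRNA transcripts, and 7 of them had such a summit, 29.2% with an interval of 12.6 to 51.1%, a grouping also made after values were seen. They were pri-mir-279_mir-996 (signal 2270 at 118 bp), pri-mir-8 (884 at 708 bp), pri-mir-252 (416 at 113 bp), pri-mir-276b_mir-276a (384 at 201 bp), pri-mir-9a (270 at 681 bp), pri-mir-184 (161 at 66 bp) and pri-mir-14 (145 at 60 bp). The first 5 of these and pri-mir-14 were supported by all 3 replicates and pri-mir-184 by 2. The other 17 had none, with the nearest summit 1073 bp from a start of pri-bantam, 1492 bp from that of pri-let-7-C, 2369 bp from that of pri-mir-10 and 20785 bp from those of pri-mir-1. Despite its name, pri-mir-276b_mir-276a is lncRNA:CR46006, which holds mir-276a but not mir-276b in the annotation used. The mir-276b hairpin lies in an exon of lncRNA:CR46004, with the nearest summit 9167 bp from a start.

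Among protein-coding hosts on the strand of the hairpin, 38 of 126 had a summit within 1000 bp of a TSS, 30.2% with an interval of 22.3 to 39.0%, against 16.1% of 13945 protein-coding genes. Hosts also had more start sites, a median of 2 against 1. Hosts with 1 or 2 TSSs had 13 of 85, 15.3% with an interval of 8.40 to 24.7%, against 13.6% of all such genes. Those with 3 or more had 25 of 41, 61.0% with an interval of 44.5 to 75.8%, against 44.7%. In this grouping, made after the values were seen, the shares of all genes lay inside both intervals, in the upper group just above its lower limit. Hosts were above all genes in both groups. The number of start sites was not matched within a group. The highest host peaks were at Btk, a tyrosine kinase gene that carries mir-2b-1 (signal 972), at CG5953 with mir-4943 (900), at bun with mir-967 (863), at the cGMP-dependent kinase gene for with mir-4972 (699) and at jigr1 (673). All 5 were supported by 3 replicates. SREBP, the lipid synthesis regulator that carries mir-33, had a summit of 362 that lay 520 bp from its TSS and 3506 bp upstream of the hairpin.

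Of 7 microRNAs linked to ecdysone and metamorphosis, 2 had a summit within 2000 bp of the hairpin, beside 14.6% of all microRNA genes and 12.4% by placement. They were mir-252 and mir-14, a repressor of the ecdysone receptor gene EcR. The mir-14 summit lay 978 bp upstream at a signal of 145 and 60 bp from the start of its transcript, with replicate signals of 49.5 (rank 3735), 63.8 (rank 4935) and 40.6 (rank 4924). It thus stood near the end of the top 5000 in replicates 2 and 3 and higher up in replicate 1. The let-7 cluster, whose members rise with the ecdysone pulses and time cell fates at metamorphosis, had its nearest combined summit 3206 bp upstream of mir-100, 3806 bp upstream of let-7 and 4087 bp upstream of mir-125. That summit, shared by the 3, had a signal of 168 and was supported by 2 replicates. The nearest peak to let-7 in each of the 3 replicate lists lay closer, at 3505, 2265 and 986 bp, with signals of 19.2, 22.4 and 10.7 and ranks of 13714, 13764 and 25049. For mir-34 and mir-965 the nearest combined summits were 13203 and 18107 bp away.

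Of 9 microRNAs linked to growth, fat body and insulin, 5 had a summit, beside the same 14.6% of all microRNA genes and 12.4% by placement, namely mir-ban, mir-8, mir-184, mir-305 and mir-276a. The mir-276a summit lay 1341 bp downstream at a signal of 138, with replicate signals of 41.2 (rank 4636), 46.6 (rank 6936) and 44.7 (rank 4423). Without one were mir-33 (3506 bp), mir-278 (7098 bp, beside a peak of 997), mir-277 (12289 bp) and mir-9c (13317 bp). Of 16 linked to tissues and patterning, 5 did, mir-279, mir-996, mir-282, mir-iab-4 and mir-iab-8, which make up 3 sites, beside the same shares of all microRNA genes and placements. The iab hairpin lies in the bithorax complex, where its products repress the Hox genes Ubx and abd-A. Its summit of 201 lay 1318 bp away, with replicate signals of 30.0 (rank 6599), 103 (rank 2647) and 73.5 (rank 2364), replicate 1 being the low one.

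Without a summit in that list were the muscle microRNAs mir-1 (23827 bp) and mir-133 (28889 bp), the neuronal mir-124 (52040 bp), mir-7 (49084 bp), mir-9a (3176 bp), mir-10 (2701 bp), mir-263a (12707 bp), mir-263b (77823 bp), mir-315 (25851 bp), mir-6-1 (13221 bp) and mir-310 (49332 bp). Near mir-310 replicates 2 and 3 had top 5000 summits within 2000 bp, at 1148 and 1126 bp with signals of 77.0 and 57.2, and replicate 1 had none. Members of the lists share clusters and peaks and were chosen with earlier results of these data known, so their counts describe these genes alone.

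Summits were also counted by seed. Of 426 seeds, 33 occurred in more than 1 gene, 11 of them in at least 1 gene with a summit within 2000 bp, and 1 seed in 2 such genes. Of all microRNA genes, 14.6% had such a summit, but that share is by gene and these seeds each belong to several genes. The 2 measures are unlike, and no pattern by seed was read from these counts. The seed with a pair, GACUAGA, belongs to mir-279 and mir-996, which lie beside the same peak, and to mir-286, which had none. The seed AUUGCAC was carried by 6 genes, of which mir-92a alone had a summit, and AUCACAG, the seed of the mir-2, mir-6, mir-11 and mir-13 families, by 14, of which mir-11 alone did.

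Matches to the 4 motifs within 50 bp of the summit were counted for the 42 summits and for all 5425. The half-site AGGTCA occurred at 1 of 42, or 2.38% against 5.35%, at the summit near mir-303. Its direct repeat occurred at none of 42 and at 0.0922% of all. An approximate upper limit for none of 42, taken as 3 divided by 42 and not an exact binomial limit, is 7.14%. GATA sites occurred at 12, or 28.6% against 29.1%, and GAGAG at 11, or 26.2% against 14.0%. A GAGAG match lay at the summits of mir-ban, mir-184, mir-14, mir-282, mir-9377, mir-4955 and mir-4962, the last 3 with 2 or more such summits each. The matches are letters in a window, and no site was tested. Sites marked farther than 50 bp from a summit in the printed windows, such as the GATA site near mir-279, are not in these counts.

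Genes of the microRNA pathway were near the background of 16.1%. Of 14, 3 had a summit within 1000 bp of a TSS, or 21.4%. These were AGO1, the Argonaute that carries microRNAs (signal 168, supported by 1 replicate), Tailor, a terminal uridylyltransferase (124, by none), and r2d2, a partner of Dicer-2 (643, by 1). The processing genes drosha, pasha, Dcr-1 and loqs had none, with the nearest summits at 15815, 1785, 16486 and 54385 bp, nor had Ranbp21, gw, Ars2, Hen1, Nbr, AGO2 and Dcr-2. Of 13 genes known as microRNA targets or, for SREBP, as a host, 4 had one, or 30.8%, namely the cell death gene hid, a target of bantam (signal 953), the mitotic phosphatase gene stg (580), SREBP (362) and EcR (159). The first 3 were supported by all 3 replicates and EcR by 1. No summit lay within 1000 bp of a TSS of ab, chinmo, Eip74EF, ush, Gug, sens, wg, Ubx or abd-A, although ush was at 1012 bp and Eip74EF at 1079 bp.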

How the data were processed

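The files are peak lists on dm6. Per the deposited manifests, each replicate list was made by the authors from that replicate's alignments with a shared control file, a pooled list from all alignments, and the combined list by an IDR threshold. Aligner, peak caller, threshold and read numbers were not stated there. Signal values are as deposited by the authors, without a stated scaling, and were used only to describe and rank peaks within a list. The dm3 lists were not used.

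Summits on the 6 arms were compared with microRNA genes of the Ensembl 115 annotation (BDGP6.54), whose arms matched the RefSeq sequence in that no peak ran past an end. A hairpin was exonic where it overlapped an exon of another gene, else intronic where it lay in a gene on either strand, else intergenic. Entries for mature products and transposable elements were no hosts, and a locus took the class of most hairpins, with ties to exonic. A locus counted where any of its hairpins was within the window, a definition settled after values were seen. In place of shuffled positions, the exact share of all placements on an arm was computed, with no p-value. Intervals are exact 95% binomial (Clopper-Pearson) and cover counting error over loci only. Since the labels do not say how the biological replicates were separated, their SD may be partly technical.

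Named were all loci with a summit, the 10 highest in full, and 3 lists of microRNAs whatever their values. Members, lists and alternatives were chosen with earlier results of these data known. Alternatives covered the window, list, signal, cluster and host definitions and left-out replicates. Python 3.11.15, numpy 2.4.6, pandas 2.3.3, scipy 1.17.1 and matplotlib 3.10.9 were used, and the counting steps were tested on simulated data.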

Additional observations from a re-analysis of the deposited data

How the results depend on the processing

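The counts followed the window and the list, and so did the placement counts beside them. For genes, all loci, exonic, intronic and intergenic loci in turn, against 38, 33, 17, 13 and 3 at 2000 bp, a window of 500 bp gave 11, 11, 3, 7 and 1. Placement in that order gave 32.3, 26, 10.1, 12.6 and 3.27 at 2000 bp and 10.6, 8.97, 3.44, 4.31 and 1.21 at 500 bp. A window of 1000 bp gave 23, 20, 9, 10 and 1, against 18.7, 15.4, 5.95, 7.45 and 2 by placement. At 5000 bp the counts were 87, 70, 29, 34 and 7, against 62.7, 49.5, 19.2, 24.2 and 5.97. The higher 50% of signals gave 15, 14, 9, 5 and 0, against 18.3, 14.8, 5.8, 7.16 and 1.87 by placement. The pooled list of all peaks gave 113, 94, 37, 44 and 13, against 125, 99.5, 39.1, 48.7 and 11.8. Taking only summits supported by both other replicates, leaving out a replicate gave 22 to 26 genes, 21 to 24 loci, 12 to 15 exonic, 6 to 7 intronic and 2 to 3 intergenic loci. Placement gave 22 to 23 genes, 17.7 to 18.6 loci, 6.89 to 7.29 exonic, 8.61 to 9.02 intronic and 2.23 to 2.32 intergenic loci. Without replicate 3 the loci numbered 21, without replicate 2 22 and without replicate 1 24. Exonic loci with a non-coding host numbered 8 to 11 of 34 in these lists, against 3.07 to 3.29 by placement. Hosts on the strand of the hairpin alone put 7 of 44 intergenic loci near a summit, against 5.62 by placement. Protein-coding hosts alone put 5 of 44 exonic and 14 of 57 intergenic loci there, against 5.6 and 7.41 by placement. Loci in non-coding genes then count as intergenic. Without summits at coding promoters, an alternative added after seeing the data, 25 loci remained near a summit and 0 intergenic ones. Placement of the same summits gave 18.5 and 2.34. In replicates 1, 2 and 3 the top 5000 peaks gave 28, 35 and 30 loci, against 24.2, 24.5 and 24.8 by placement. The top 10000 gave 43, 55 and 49, against 43.8, 40.3 and 41.9. With the longer lists replicate 1 was thus just below placement and replicates 2 and 3 above. Under added alternatives, pathway genes with a summit numbered 1 of 14 with the higher signals and 0 whichever replicate was left out. At the share of all protein-coding genes the counts would be 1.42 and 1.52 to 1.71. Of 96 alternative values, 48 stayed within 1.5 times the main count. Why the others moved was not tested beyond the change each makes to the peaks or classes counted. No paired analysis was possible because there is 1 group. Depth is unknown and limits every count.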
